A study of Mus musculus with 6 samples.

Results

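The genes described here encode the nuclear subunits of oxidative phosphorylation in the kidney cortex. They were chosen by symbol alone, as every gene whose name starts with Ndufa, Ndufb, Ndufc, Ndufs, Ndufv, Uqcr, Sdha to Sdhd, Cox4i, Cox5, Cox6, Cox7, Cox8 or Atp5, leaving out pseudogenes, unnamed transcripts and the Ndufaf assembly factors. The rule found 89 of the 26903 genes counted. By role, 36 belonged to complex I, 4 to complex II, 8 to complex III, 20 to complex IV (with Ndufa4 and its relative Ndufa4l2) and 17 to complex V. The remaining 4, Sdhaf1 to Sdhaf4, are assembly factors of complex II that the prefix Sdha took in. Cox6a2 was listed in 5 and Cox8c in 4 of the 6 libraries, and the other members in all of them.

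Complexes I to IV pass electrons from NADH and succinate to oxygen. Complexes I, III and IV pump protons across the inner mitochondrial membrane, and complex V uses the gradient to make ATP. Complexes I, III, IV and V mix subunits made from nuclear genes with a few made inside the mitochondrion, whereas complex II is wholly nuclear. Tubule segments that reabsorb salt against a gradient are rich in mitochondria, and several complex IV subunits come in isoforms used by different tissues.

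The study asked what the loss of Prdm16, a transcriptional regulator, does in the ageing kidney, and measured single cells of the renal cortex from 3 wild type (WT) and 3 Prdm16 global knockout (KO) mice. All mice were labelled male and were 9 months old, and according to the methods the knockout was made by Cas9 deletion of exon 2, so every cell type carries it. Each library came from 1 mouse, so the 3 libraries of a group were separate animals. The cortex was dissociated enzymatically, and cells were captured in microwells, where each transcript received a unique molecular identifier (UMI).

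Filtering kept 28488 cells, between 3538 and 6276 per library, with 22965576 to 35466583 UMIs per library and a median of 19.1% to 29.6% mitochondrial UMIs per cell. Pairs of libraries shared 0 to 2 cell barcodes. Prdm16 was counted at 32.1, 26.7 and 27.1 CPM (the UMIs of a gene scaled to a common total per library and class) in the WT libraries and at 21.2, 25.3 and 23.6 CPM in the KO libraries. Whole-gene counts include transcripts without exon 2 and therefore do not check the deletion. In WT replicate 2 and KO replicate 1, Xist stood at 297 and 307 CPM and 4 Y-linked genes together at 0.0564 and 0.0612 CPM, against Xist of at most 0.218 CPM in the other libraries, which goes against the male label of these mice. Values with and without both libraries are given for the shares in IC and PC, for LOH, podocytes and stromal Cox4i2, and for the count called in DLH. Other results, among them Cox7a1 in CNT, Ndufa10 and the pairs of classes, are not given without both.

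Cells were grouped without the members and without mitochondrially encoded genes, so that the groups do not rest on the values described. The names mean that a group resembled a cell type by its markers: distal convoluted tubule (DCT, 1775 cells), intercalated cells (IC, 3310), connecting tubule (CNT, 1394), loop of Henle (LOH, 3520), principal cells (PC, 3384), proximal convoluted tubule (PCT, 375), macula densa (412), descending limb (DLH, 213), stromal and mesangial cells (818), podocytes (5950), endothelial cells (5048), T and NK cells (769) and macrophages (919). The defining transporter of DCT, Slc12a3, was at 3285 CPM in DCT and 133.7 CPM elsewhere, and Umod of the loop of Henle was at 33730 CPM in LOH and 801 CPM elsewhere. IC and PC were less uniform. A cluster of 1465 IC cells, with a median of 803 UMIs, scored 2.99 over erythroid markers and 0.66 over IC markers. It was named IC since 7 of its leading genes were IC markers. Another, of 728 cells with a median of 20800 UMIs, scored 1.649 for IC and 1.644 for PC. In PC, a cluster of 1629 cells scored 2.484 for PC and 1.634 for CNT, with the CNT marker Trpv5 among its leading genes. Its part of PC ran from 224 of 616 cells in WT replicate 3 to 339 of 515 cells in KO replicate 1. PCT held only 36, 91 and 186 cells in the WT and 10, 36 and 16 cells in the KO libraries. Fewer cells of a type and less RNA per cell cannot be told apart in sums over a class.

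The members took their highest share of UMIs in the distal nephron, in an order that depended on the limit of 50% mitochondrial UMIs per cell. Without a limit IC had 3.44%, PC 2.88%, DCT 2.82%, CNT 2.60% and LOH 2.57%, so that DCT no longer stood first, and the values that follow are with the limit. In DCT they made up 5.37% ± 0.243 of UMIs (mean ± SD over the 6 libraries here and below), with a range of 5.08% to 5.62%. IC followed at 4.64% ± 0.377, with 4.09% to 4.91%, so that DCT stood above IC in 6 of 6 libraries without overlap. CNT at 4.06% ± 0.165, LOH at 3.76% ± 0.214, PC at 3.44% ± 0.243 and PCT at 3.11% ± 0.575 formed a descending series in which each neighbour overlapped the next. Macula densa at 2.73% ± 0.201 and DLH at 2.46% ± 0.813 overlapped as well. The libraries with Xist were the lowest of their groups in IC (4.09% in WT and 4.23% in KO, with the others from 4.87% to 4.91%) and in PC (3.16% and 3.17%, with the others from 3.45% to 3.79%), and DCT lay above IC with or without them.

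Outside the tubule the share was lower. Stromal cells, at 1.69% ± 0.134, stood above podocytes at 1.42% ± 0.108 in all 6 libraries. Endothelial cells, at 1.39% ± 0.056, overlapped podocytes and lay above T and NK cells at 1.10% ± 0.111. Macrophages had the lowest share, 0.726% ± 0.089, below T and NK cells in 6 of 6 libraries. These shares are levels, and no test was made on the sum over members.

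**Figure D1:**
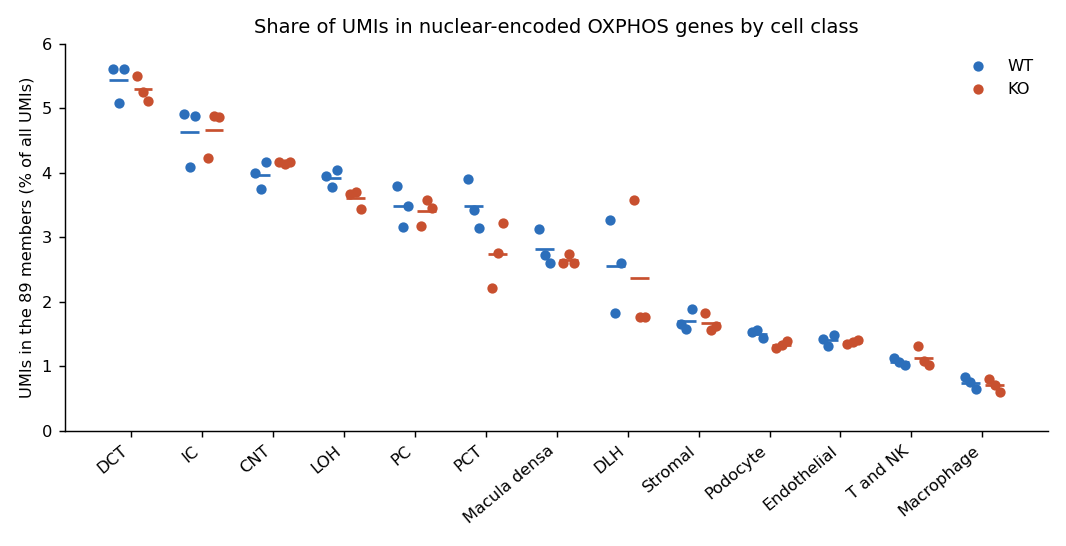
Share of UMIs taken by the nuclear-encoded subunits (percent of all UMIs, vertical axis) in each cell class (horizontal axis), with 1 point per library and a short line at the mean of the 3 WT or 3 KO libraries. DCT, at 5.08% to 5.62%, lies above IC, at 4.09% to 4.91%, and macrophages average 0.726%.

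Mitochondrially encoded transcripts moved with these shares. They made up 40.7% of UMIs in DCT, 36.3% in IC, 42.7% in LOH, 29.9% in PC, 15.9% in endothelial cells and 12.7% in podocytes. With mitochondrial transcripts left out of the total, the members took 9.05% in DCT, 7.30% in IC, 6.86% in CNT, 6.58% in LOH and 4.91% in PC, and LOH then lay above PC without overlap. Over the 13 class means, the members' share of nuclear UMIs and the mitochondrial share of UMIs had a Pearson correlation of 0.927 and a Spearman correlation of 0.890. The points share libraries, so this is a description. The limit of 50% mitochondrial UMIs set which tubule cells were kept, and without it IC (3.44%) and PC (2.88%) lay above DCT (2.82%).

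The 12 core and catalytic members were highest in distal classes, 9 of them in DCT and 3 in IC (Ndufs1, Uqcrfs1 and Cox5a). Atp5a1, the alpha subunit of the catalytic head of ATP synthase, ranged from 1634 to 1875 CPM in DCT, with a median of 1770 CPM, and from 183 to 269 CPM in macrophages, with a median of 254 CPM. Cox4i1, the common form of complex IV subunit 4, had 999 to 1052 CPM in DCT (median 1024) and 128 to 214 CPM in macrophages (median 175). The ranges did not overlap for either gene.

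Ndufv1, which holds the NADH site of complex I, showed the widest ratio among the core members, with mean levels of 115 CPM in DCT and 9.90 CPM in macrophages, a ratio of 11.6. Sdha, the flavoprotein of complex II, averaged 587 CPM in DCT and 77.5 CPM in macrophages. Its iron-sulphur partner Sdhb averaged 292 and 34.0 CPM in the same classes. Uqcrc1, a core protein of complex III, fell lowest in T and NK cells (22.3 CPM against 159 CPM in DCT), and Uqcrfs1, the Rieske iron-sulphur protein, lowest in endothelial cells (78.9 CPM against 568 CPM in IC). Cox5b averaged 687 CPM in DCT and 77.2 CPM in macrophages, Cox5a 729 CPM in IC and 78.9 CPM in macrophages, and Atp5b, the catalytic beta subunit, 1221 CPM in DCT and 135 CPM in macrophages.

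Among the 84 members with at least 20 CPM in some class, 64 had their highest class mean in DCT and 13 in IC, and 73 had their lowest in macrophages. The ratio of the highest to the lowest class mean had a median of 7.97 and quartiles of 5.93 and 10.4. Cox4i2, Ndufa4l2 and Cox6b2 had the widest ranges and are described with the isoforms below. The narrowest was that of Cox7a2l, a relative of subunit 7A that links complexes III and IV, with 361 CPM in endothelial cells and 157 CPM in PCT, a ratio of 2.29. Atp5g2, which encodes a copy of the c-ring subunit of ATP synthase, followed with 2.47 (809 CPM in DCT against 327 CPM in macrophages), and Sdhaf1 with 3.35 (51.6 CPM in PCT against 15.4 CPM in macrophages).

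The balance between complexes shifted little. Of the members' UMIs, complex I took from 22.7% in T and NK cells to 29.9% in podocytes, complex IV from 27.6% in podocytes to 32.0% in IC, and complex V from 28.9% in endothelial cells to 35.0% in T and NK cells. Complex III took from 8.80% in podocytes to 10.8% in T and NK cells. Complex II, with 4 genes, took from 2.43% ± 0.471 in T and NK cells to 3.91% ± 0.469 in PCT. Podocytes thus had the largest mean for complex I (29.9% ± 0.681) and the smallest for complex IV (27.6% ± 0.273) among the 13 classes.

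**Figure D2:**
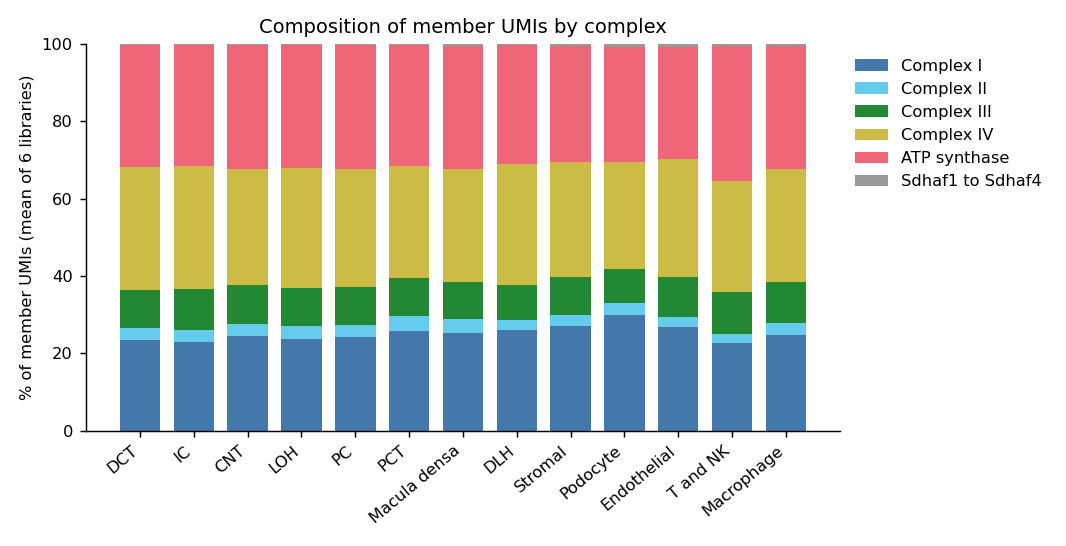
Percent of the members' UMIs in each complex (vertical axis, stacked bars whose full height is all of the members' UMIs) by cell class, as means over the 6 libraries. Complex I has its longest segment in podocytes (29.9%), complex IV in IC (32.0%), and ATP synthase, which is complex V, in T and NK cells (35.0%).

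The widest ranges between classes belonged to isoforms. Cox4i2, the oxygen-responsive form of complex IV subunit 4, and Ndufa4l2, the hypoxia-inducible relative of Ndufa4, were concentrated in stromal and mesangial cells. Stromal Cox4i2 was at 52.8, 37.1 and 30.3 CPM in the WT and at 87.5, 43.7 and 32.1 CPM in the KO libraries. Its 126 UMIs there compare with 0 in DCT, macula densa, PCT, macrophages and T and NK cells, and with 10 or fewer in every other class. Against a limit of 3 UMIs over the class, the stromal level was at least 228.5-fold higher than in DCT and at least 28.9-fold higher than in T and NK cells, where depth was lower.

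Ndufa4l2 had 464 stromal UMIs, at 213, 233 and 135 CPM in WT and at 196, 90.8 and 133 CPM in KO libraries, and 13 UMIs or fewer in any other class. For both genes the lowest stromal library (30.3 and 90.8 CPM) lay above the highest library of any other class (6.89 CPM in DLH and 5.47 CPM in endothelial cells). Within the stromal class, Cox4i2 was at 104 ± 42.9 CPM in the cluster led by Acta2, Rgs5, Myh11 and Ren1, genes of vascular smooth muscle and renin-producing cells. It was at 15.4 ± 6.83 CPM in the cluster led by Sfrp2 and Itga8, and the first was higher in 6 of 6 libraries. Ndufa4l2 was at 198 ± 89.2 and 151 ± 43.3 CPM in the same clusters and higher in the first in 4 of 6 libraries. Cox4i1 and Ndufa4, the common partners, averaged 306 ± 23.3 and 262 ± 57.9 CPM in the stromal class.

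Cox7a1, known as the heart and muscle form of subunit 7A, was highest in IC. It ranged from 194 to 313 CPM in IC (median 280), from 83.7 to 169 CPM in PC (median 147) and from 56.9 to 135 CPM in CNT (median 86.4). DCT had 35.5 to 72.9 CPM (median 54.1) and LOH 44.7 to 66.7 CPM (median 50.2), so that the order of levels for this gene differed from that of the summed members. Endothelial cells and podocytes had at most 8.32 and 6.04 CPM. In DLH its level ran from 0 to 372 CPM between libraries, with 26 to 54 cells each. Among the IC clusters, the one led by Slc4a1, Aqp6 and Kit, genes of acid-secreting (type A) intercalated cells, had 361 ± 62.6 CPM. The cluster led by Slc26a4, the base-secreting (type B) exchanger, had 216 ± 43.1 CPM, lower in 6 of 6 libraries.

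Cox6b2, known as the testis form of subunit 6B, was highest in PCT on average (38.8 CPM) but rested on 89 UMIs there and ran from 0 to 104 CPM, with a median of 30.7 CPM. In the Slc4a1-led IC cluster it was at 29.0 ± 7.33 CPM against 9.55 ± 3.07 CPM in the Slc26a4-led cluster, higher in 6 of 6 libraries. Cox7b2, a testis form of subunit 7B, had 84 of its 85 UMIs in podocytes. The muscle forms Cox6a2 and Cox8b had 2 UMIs each and Cox8c had 5, of 177139332 UMIs in all classes, too few for a level. The common forms Cox6a1, Cox6b1, Cox7a2, Cox7b and Cox8a were counted in every class, as were all 3 genes of the c-ring, Atp5g1, Atp5g2 and Atp5g3, whose mature proteins are identical.

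**Figure D3:**
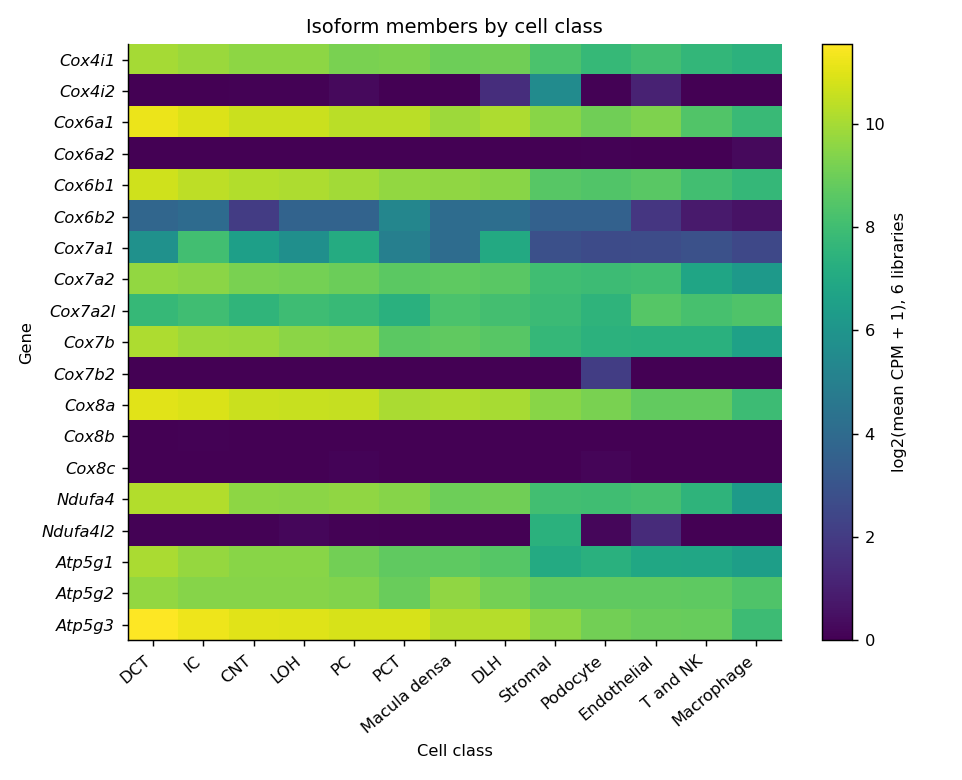
Mean level of the isoform members over the 6 libraries, as colour on the scale log2(mean CPM + 1), by gene (vertical axis) and cell class (horizontal axis). The stromal column is the bright one for Cox4i2 and Ndufa4l2 (means 47.2 and 167 CPM), and Cox7a1 is highest in IC (mean 261 CPM).

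Pairs of classes were compared within mice with edgeR's quasi-likelihood test, with the library as a term and adjustment (Benjamini-Hochberg) over all genes. Against PC, 80 of 83 members tested were higher in DCT and 1 was lower, with a median log2 difference of 0.94, when 24.6% of all genes were higher, 25.6% were lower, and the median over all genes was -0.01. Uqcrq, a small subunit of complex III, ranged from 790 to 993 CPM in DCT (median 939) and from 330 to 444 CPM in PC (median 405). Its log2 difference was 1.497 ± 0.075 (SE, edgeR adjusted p = 3.02e-10). Sdhb followed with 1.38 ± 0.08, from 271 to 328 CPM in DCT and from 107 to 152 CPM in PC, and Ndufb4, an accessory subunit of complex I, with 1.34 ± 0.07. Cox7a1 was the exception and was lower in DCT by -0.97 ± 0.14 (edgeR adjusted p = 3.42e-05), with ranges of 35.5 to 72.9 and 83.7 to 169 CPM that did not overlap.

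In IC, 79 of 83 members were higher than in PC and none was lower, at a background of 24.7% higher and 25.5% lower, with a median of 0.63 against -0.02 over all genes. No member was lower at an unadjusted p under 0.05 either, or with DESeq2, and 75 of the 79 had higher CPM in IC in all 6 libraries. Cox7a1 had the largest difference (1.205 ± 0.070), followed by Ndufs1, the largest core subunit of complex I (0.96 ± 0.06), and Uqcrq (0.95 ± 0.05).

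LOH had 78 of 83 members higher and 1 lower than PC, at a background of 27.8% and 28.5%, with a median of 0.56 against -0.01 over all genes. Sdhb (1.14 ± 0.07) and Ndufs6, an accessory subunit in the NADH-oxidising arm of complex I (1.13 ± 0.09), were among the largest differences, and Cox7a1 was the lower gene (-0.87 ± 0.16). This comparison depends on the scaling, since edgeR's TMM factors and plain CPM differed between these classes, whose mitochondrial shares were 42.7% and 29.9%. Of the 78 called, 33 had higher CPM in LOH in all 6 libraries and 17 had a lower mean CPM.

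In PCT, 5 of 83 members tested were higher and 4 lower than in PC, at a background of 13.5% higher and 37.5% lower. The count depended on the method, with 15 higher and 1 lower when mitochondrial transcripts were left out of the scaling, and 15 higher and 5 lower with DESeq2. The higher ones were Cox6b2 (1.62 ± 0.33), Sdhaf1 (1.13 ± 0.27), Ndufv3 of the NADH-oxidising arm (0.84 ± 0.25), Sdhb (0.73) and Ndufv1 (0.59). The lower ones were Cox7a1 (-1.93 ± 0.27), Cox7b (-0.87 ± 0.26), Ndufs5, an accessory subunit of the complex I membrane arm (-0.79 ± 0.26), and Ndufa5 (-0.62). PCT gave 16 or fewer cells in 2 KO libraries, and without KO replicate 1 the count was 19 higher and 2 lower, without WT replicate 2 it was 3 and 5, and without WT replicate 3 it was 6 and 1.

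Endothelial cells had 80 of 83 members lower than PC and 2 higher, at a background of 34.8% higher and 35.8% lower, with a median of -1.39 against 0.00 over all genes. The higher genes were Cox7a2l (0.63 ± 0.09), from 339 to 412 CPM in endothelial cells and from 178 to 257 CPM in PC, and Sdhaf1 (0.58 ± 0.16). Cox7a1 (-4.67 ± 0.15), Atp5g1 (-2.33 ± 0.10) and Uqcrfs1 (-2.24 ± 0.13) were lowest.

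Stromal cells had 42 of 82 members higher and 5 lower than endothelial cells, at a background of 23.3% and 23.9%, with a median of 0.30 against -0.01. Ndufa4l2 (6.70 ± 0.33) and Cox4i2 (5.38 ± 0.47) led, and Sdhc, a membrane anchor of complex II, followed (1.02 ± 0.14), with 90.8 to 108 CPM in stromal and 38.6 to 55.8 CPM in endothelial cells. The lower genes with the largest differences were Sdhaf4 (-1.16 ± 0.22), Ndufc2 of the complex I membrane arm (-0.71 ± 0.11) and Cox7a2l (-0.65 ± 0.11). DESeq2 called 20 members higher in this pair and edgeR without a filter on low counts 26, so the count of smaller differences depends on the method.

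A total of 5 members passed the threshold between WT and KO in some class, 4 of 83 tested in LOH and 1 of 82 in CNT. Of all genes tested, 4.58% were called in LOH and 2.52% in CNT. The promoters of these members are shown here before their values, to let a reader compare them. Each is given 5′ to 3′ on the gene's strand, from 250 bases before to 50 bases after the start, from RefSeq on GRCm38.p6, with matches to the motifs searched in capitals.
Ndufv3, chr17:31519865-31520164, plus strand: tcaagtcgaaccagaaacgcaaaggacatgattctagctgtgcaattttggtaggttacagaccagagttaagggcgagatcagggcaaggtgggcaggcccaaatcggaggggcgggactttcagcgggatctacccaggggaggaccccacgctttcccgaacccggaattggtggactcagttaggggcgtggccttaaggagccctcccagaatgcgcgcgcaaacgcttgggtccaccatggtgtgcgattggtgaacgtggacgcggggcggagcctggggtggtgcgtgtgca
Atp5k, chr5:108434350-108434649, minus strand: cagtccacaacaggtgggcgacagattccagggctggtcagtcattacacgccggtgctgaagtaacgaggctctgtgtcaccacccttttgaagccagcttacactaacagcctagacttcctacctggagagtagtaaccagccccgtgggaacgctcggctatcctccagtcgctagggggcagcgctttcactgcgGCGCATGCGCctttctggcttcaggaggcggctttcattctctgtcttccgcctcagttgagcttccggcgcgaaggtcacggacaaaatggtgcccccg
Ndufs6, chr13:73328433-73328732, minus strand: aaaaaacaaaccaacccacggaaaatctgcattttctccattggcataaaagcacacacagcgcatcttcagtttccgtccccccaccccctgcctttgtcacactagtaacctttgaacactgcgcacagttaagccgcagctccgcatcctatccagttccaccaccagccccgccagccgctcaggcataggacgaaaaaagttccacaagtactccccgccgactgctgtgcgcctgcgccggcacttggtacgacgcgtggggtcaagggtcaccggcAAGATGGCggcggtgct
Ndufs5, chr4:123718137-123718436, minus strand: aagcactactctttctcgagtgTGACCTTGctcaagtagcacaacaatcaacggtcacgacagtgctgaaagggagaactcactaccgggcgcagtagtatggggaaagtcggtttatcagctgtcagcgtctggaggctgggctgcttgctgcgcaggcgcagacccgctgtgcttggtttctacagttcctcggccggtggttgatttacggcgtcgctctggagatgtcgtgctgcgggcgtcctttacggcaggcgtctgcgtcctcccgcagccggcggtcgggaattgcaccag
Cox7a1, chr7:30183921-30184220, plus strand: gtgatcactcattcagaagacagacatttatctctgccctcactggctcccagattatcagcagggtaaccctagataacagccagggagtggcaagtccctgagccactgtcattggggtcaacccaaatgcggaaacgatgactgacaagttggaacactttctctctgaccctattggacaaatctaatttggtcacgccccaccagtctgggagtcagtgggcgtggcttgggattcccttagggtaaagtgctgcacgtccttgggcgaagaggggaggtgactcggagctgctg

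The motifs were those of regulators known to act on mitochondrial genes and were searched on both strands: the NRF1 core GCATGCGC (GCGCATGC on the other strand), the estrogen-related receptor (ERR) core CAAGGTCA (TGACCTTG), the YY1 core AAGATGGC (GCCATCTT) and the ETS core CCGGAAGT (ACTTCCGG). Of the 89 members, 72 had a promoter in the table. NRF1 letters were in 13.9% of these (10 promoters) and in 3.70% of all 18091 promoters of the same length, YY1 letters in 11.1% (8) and 3.28%, ERR letters in 5.56% (4) and 1.28%, and ETS letters in 6.94% (5) and 5.42%. In all, 25 members held at least 1 motif. In the promoters above, Atp5k held overlapping NRF1 letters on both strands from base -50, Ndufs6 YY1 letters from base 34, and Ndufs5 ERR letters from base -228, counting the start as 1. Ndufv3 and Cox7a1 held none of these letters in the window. A match is a description of the sequence, and binding was not measured.

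Between WT and KO, LOH was the class with the most members past the threshold. It was also the class with the most genes of any kind called (494 of 10784), so this rank is not particular to the members. Of 83 members tested with edgeR, 4 were lower in KO and none higher, where 4.58% of all genes were called and 2.36% were called lower. DESeq2 called the same 4 members, and its share of all genes called is not given. Ndufv3 lies at chr17:31520115-31531331 (GRCm38, plus strand) and encodes an accessory subunit of the NADH-oxidising arm of complex I. It was at 244, 236 and 240 CPM in WT and at 177, 181 and 165 CPM in KO libraries, all KO below all WT. The log2 fold change was -0.47 ± 0.08 (edgeR adjusted p = 0.00588).

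Atp5k, chr5:108433244-108434448 on the minus strand, encodes subunit e, which helps to join ATP synthase dimers. It was at 861, 828 and 931 CPM in WT and at 672, 667 and 675 CPM in KO, without overlap, a change of -0.38 ± 0.08 (edgeR adjusted p = 0.0198). Ndufs6, chr13:73319838-73328542 on the minus strand, was at 189, 210 and 196 CPM in WT and at 149, 167 and 138 CPM in KO (-0.40 ± 0.09, edgeR adjusted p = 0.0327). Ndufs5, chr4:123712710-123718202 on the minus strand, was at 264, 271 and 265 CPM in WT and at 227, 214 and 204 CPM in KO (-0.31 ± 0.08, edgeR adjusted p = 0.0425). In each of the 4 genes the KO libraries lay below the WT libraries.

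**Figure D4:**
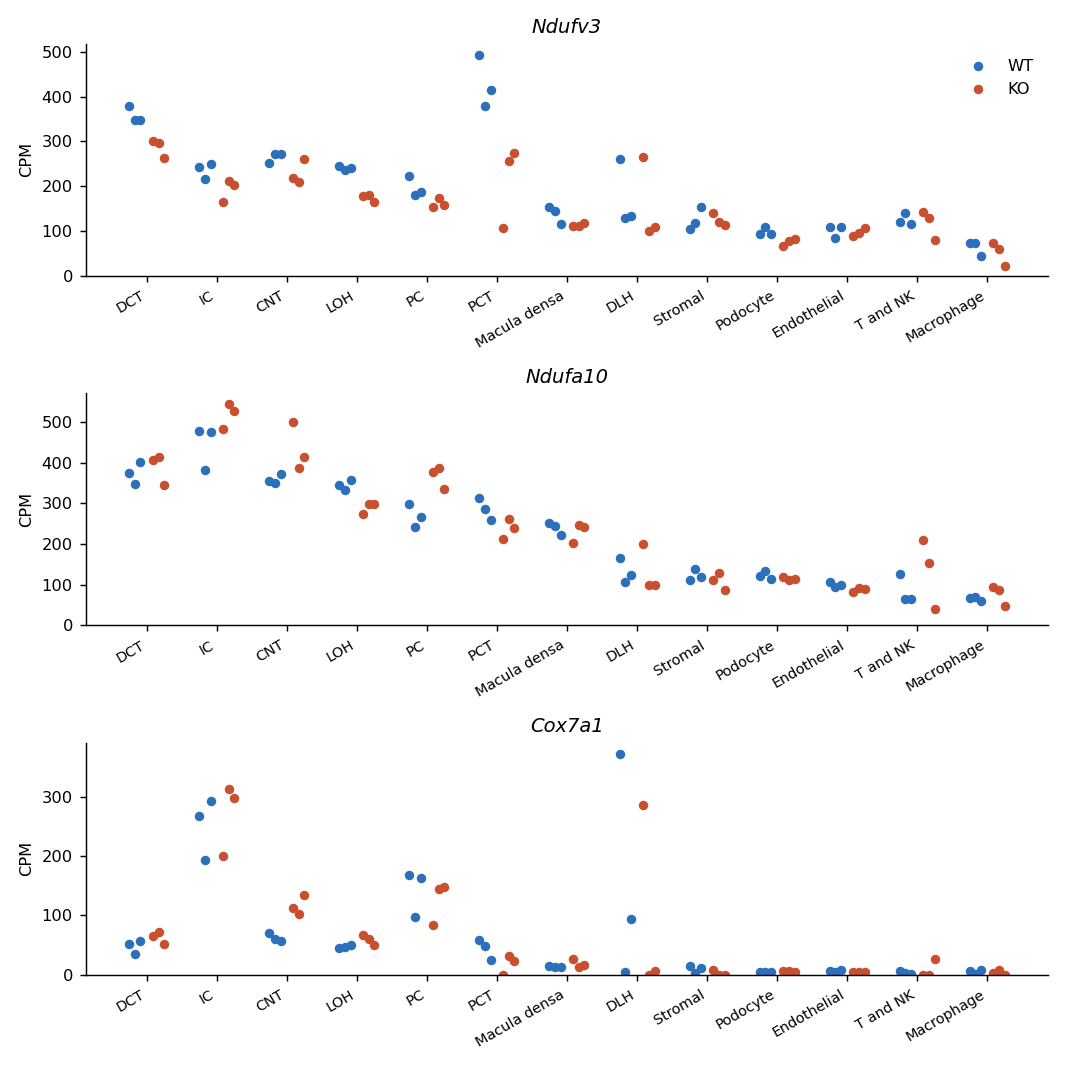
Levels of Ndufv3, Ndufa10 and Cox7a1 in each library (CPM, linear axis from 0) by cell class, with 1 point per library and WT beside KO. In LOH, Ndufv3 is at 236 to 244 CPM in WT and 165 to 181 CPM in KO, and in CNT, Cox7a1 is at 56.9 to 70.2 CPM in WT and 103 to 135 CPM in KO.

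The other members of LOH leaned the same way. Of the 83, 78 had a negative fold change, with a median of -0.15 against -0.00 over all genes, and 44 had all KO libraries below all WT libraries, where 10.6% of all genes did. An unadjusted p under 0.05 was reached by 28 members lower in KO and 1 higher (Cox7a1, 0.31), against 17.1% of all genes in both directions. By complex, 36 of 36 subunits of complex I, 4 of 4 of complex II, 8 of 8 of complex III, 11 of 14 of complex IV and 16 of 17 of complex V were negative. The members' share of UMIs was 3.95%, 3.79% and 4.04% in WT and 3.67%, 3.70% and 3.44% in KO, which did not overlap.

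Which members of LOH passed depended on the libraries. Leaving out WT replicate 3, KO replicate 1 or KO replicate 3 left only Ndufv3, leaving out WT replicate 1 left Ndufv3, Atp5k and Ndufs6, and leaving out WT replicate 2 or KO replicate 2 left 2 members. Without the libraries with Xist none was called and Ndufv3 was at -0.48 (edgeR adjusted p = 0.0575), while 78 of 83 members were negative. A limit of 30% mitochondrial UMIs also left none, and no limit left Ndufv3. The class was also split into its clusters after seeing the data. The cluster led by Cldn10 and Nccrp1 had 81 of 83 negative with a median of -0.25 and 11 called. That led by Tmem207 and Cldn16 had 66 of 83 negative with a median of -0.06 and 1 called (Cox7a1). Their median UMIs per cell were 17560 and 2381. The share of all genes called in each cluster is not given, so these counts cannot be read as a trait of the members. Beside this, 77 of 81 ribosomal protein genes had a positive fold change in LOH (median 0.13), the mitochondrial share was 43.0% to 43.5% in WT and 41.1% to 43.6% in KO, and the median UMIs per cell were 2658 to 10463 and 5200 to 13273. Their part in the result was not tested.

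In podocytes no member passed the threshold with edgeR, where 1.8% of all genes did. DESeq2 called 1 (Cox6b1), and edgeR without a filter on low counts called 7. The share of all genes called in these fits is not given, so these counts cannot be read as a trait of the members. Of the 2 podocyte clusters, each fitted alone after seeing the data, 1 gave Ndufv3, without a share of all genes to set beside it. In the class as a whole 78 of 84 members had a negative fold change, with a median of -0.18 against 0.00 over all genes, and 39 had all KO libraries below all WT libraries, where 11% of all genes did. An unadjusted p under 0.05 was reached by 33 members, all lower in KO, against 18.5% of all genes in both directions. Atp5h, chr11:115415689-115419962 on the minus strand, encodes subunit d in the stalk of ATP synthase. It was at 264, 274 and 262 CPM in WT and at 213, 215 and 216 CPM in KO (-0.33 ± 0.09, edgeR adjusted p = 0.0965). Cox6b1, a complex IV subunit facing the intermembrane space, was at 386, 397 and 351 CPM in WT and at 281, 309 and 304 CPM in KO (-0.36 ± 0.10, edgeR adjusted p = 0.101, DESeq2 adjusted p = 0.0476). Both genes had KO libraries below WT libraries. Cox7b2, with 84 UMIs in podocytes, was at 6.77, 2.80 and 5.23 CPM in WT and at 0.403, 1.52 and 3.24 CPM in KO, which overlapped (edgeR adjusted p = 0.149).

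The members' share in podocytes was 1.53%, 1.55% and 1.43% in WT and 1.28%, 1.33% and 1.39% in KO, without overlap. Beside this, all 13 mitochondrially encoded subunits had a positive fold change in podocytes (median 0.22), the mitochondrial share was 11.3% to 12.4% in WT and 13.3% to 13.9% in KO, and the median UMIs per cell were 4350 to 5381 in WT and 2675 to 3551 in KO. Ribosomal protein genes were negative in 76 of 80 (median -0.13). Their part in the result was not tested. Without the libraries with Xist, 69 of 84 members were negative, with a median of -0.12.

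**Figure D5:**
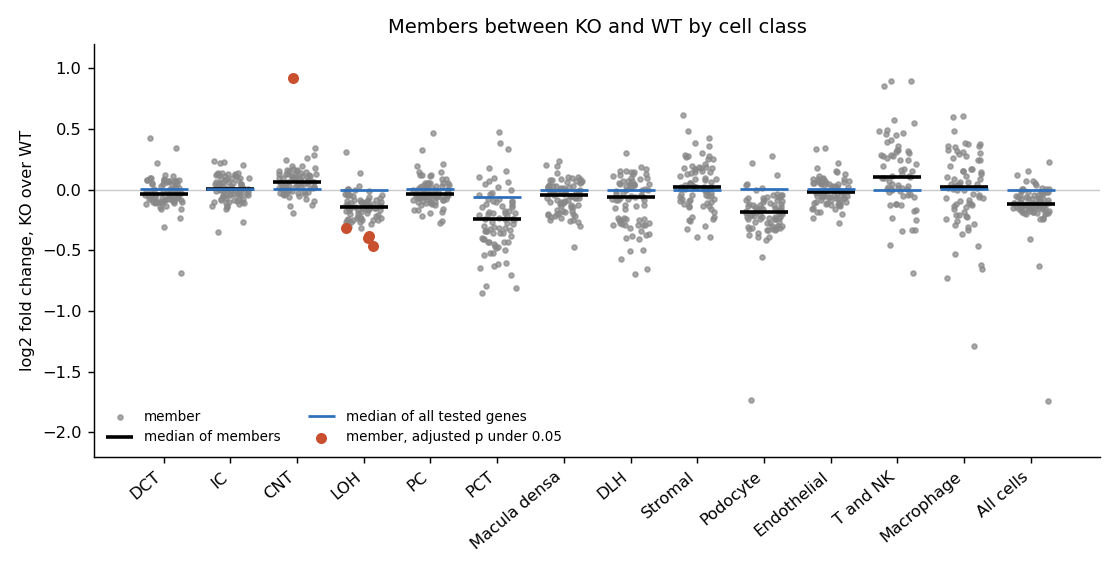
Log2 fold change of KO over WT (vertical axis) for each member tested in each cell class, with black lines at the median of the members, blue lines at the median of all genes tested and larger red points for the members past the threshold. The members' medians are -0.15 in LOH and -0.18 in podocytes, and 0.06 in CNT.

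CNT had 1 member past the threshold, where 2.52% of all genes were called and 1.36% were called higher. Cox7a1, chr7:30184144-30186078 on the plus strand, was at 70.2, 59.7 and 56.9 CPM in WT and at 113, 103 and 135 CPM in KO, all KO above all WT (0.92 ± 0.15, edgeR adjusted p = 0.000961). The call stood in all 6 fits that left out 1 library. With a limit of 30% mitochondrial UMIs it was 0.37 (edgeR adjusted p = 0.735). In other distal classes Cox7a1 was at 0.43 in DCT with overlapping groups (edgeR adjusted p = 0.396), at 0.13 in IC and at -0.17 in PC. In LOH it was at 44.7, 47.4 and 49.8 CPM in WT and at 66.7, 59.8 and 50.7 CPM in KO. All KO libraries thus lay above all WT libraries in LOH, as they did in podocytes (5.26 to 6.04 against 4.37 to 4.95 CPM). It did not pass the threshold in either class. Across CNT members, 62 of 82 were positive, but without a mitochondrial limit 63 of 83 were negative, and without WT replicate 2 43 of 82 were, so the direction over the members depended on the limit and on this library.

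In the other classes edgeR called no member between WT and KO. Of the 83 members tested in DCT, IC and PC each, none passed, where 1.24%, 0.866% and 2.98% of all genes did. The same held for 77 members in DLH (0.106% of all genes called), 80 in endothelial cells (0.207%), 74 in macrophages (0.424%), 81 in macula densa (0.981%), 80 in PCT (0.283%), 80 in stromal cells (0.126%), 66 in T and NK cells (0.0255%) and 86 in the sum of all cells (0.593%). DESeq2 called 1 member in PC (Ndufa10) and 1 in the sum of all cells (Ndufv3), and none in the others, without a share of all genes to set beside these counts. At an unadjusted p under 0.05, edgeR gave 4 members in DCT, 3 in the sum of all cells, 2 each in macrophages and T and NK cells, 1 each in endothelial cells, macula densa, PC and PCT, and none in DLH, IC and stromal cells, beside 4.95% (T and NK cells) to 14.8% (all cells) of all genes.

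The 2 members with the lowest p in each of these classes follow, and none of them passed the threshold. In DCT, Ndufv3 was at 378, 347 and 349 CPM in WT and at 300, 296 and 263 CPM in KO (-0.30 ± 0.11, edgeR adjusted p = 0.252, and 0.12 with a limit of 30% mitochondrial UMIs), and Cox6b2 was at 15.97, 15.92 and 15.8 against 8.63, 8.57 and 12.6 CPM (-0.69 ± 0.25, edgeR adjusted p = 0.281). Neither pair of groups overlapped. In IC, Ndufv1 was at 89.9, 83.6 and 87.4 against 96.8, 108 and 93.7 CPM (0.22 ± 0.11, edgeR adjusted p = 0.489), higher in all KO libraries, followed by Ndufv3 (-0.27 ± 0.14, edgeR adjusted p = 0.4997). In PC, Ndufa10, an accessory subunit on the matrix side of complex I, was at 297, 243 and 268 against 377, 387 and 334 CPM (0.47 ± 0.12, edgeR adjusted p = 0.0726), higher in all KO libraries. Ndufv3 followed there at -0.26 ± 0.12 (edgeR adjusted p = 0.398).

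In macula densa, Atp5md, a small membrane subunit of ATP synthase, was at 484, 439 and 453 against 283, 320 and 361 CPM (-0.47 ± 0.15, edgeR adjusted p = 0.174), lower in all KO libraries, followed by Atp5k (-0.30 ± 0.15, and 0.12 with a limit of 30% mitochondrial UMIs). In endothelial cells, Ndufc2 was at 180, 158 and 185 against 256, 193 and 203 CPM (0.34 ± 0.15, edgeR adjusted p = 0.518), followed by Uqcrc2, a core protein of complex III (-0.27 ± 0.14). In PCT, Ndufs6 was at 222, 174 and 198 against 53.2, 95.9 and 125 CPM (-0.85 ± 0.37, edgeR adjusted p = 0.828), followed by Ndufv3 (-0.79 ± 0.37). None of these pairs of groups overlapped, and none passed the threshold. In PCT 69 of 80 members were negative (median -0.25 against -0.06 over all genes) and 20 had KO below WT without overlap, where 8.35% of all genes did, and without KO replicate 1, which gave 10 cells, 54 of 81 were negative.

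In macrophages, Sdhaf4 (-1.28 ± 0.51, 45 UMIs) and Ndufb4 (-0.72 ± 0.32) had the lowest p, in stromal cells Ndufs4 (0.48 ± 0.27) and Cox4i2 (0.61 ± 0.35, but -0.0071 without KO replicate 1 and -0.0795 without both libraries with Xist), in T and NK cells Ndufb6 (0.90 ± 0.35) and Ndufa10 (0.89 ± 0.39), and in DLH Ndufb7 (-0.57 ± 0.36) and Ndufs6 (-0.40 ± 0.28). The groups overlapped for the members of the stromal, T and NK and DLH classes. In DLH 49 of 77 members were negative, but 75 of 77 were without KO replicate 1 and 24 of 77 without KO replicate 2.

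Ndufv3 was the member whose KO libraries lay below the WT libraries in the most classes. The sum of all cells mixes classes with different levels, and their cell numbers differed between the groups, with DCT at 342 to 454 cells per WT library and 146 to 301 per KO library, and endothelial cells at 606 to 683 and 685 to 1494. A difference in the sum and a difference in the mix of cells cannot be told apart. In that sum Ndufv3 was at 218, 204 and 223 CPM in WT and at 152, 161 and 166 CPM in KO, without overlap (-0.41 ± 0.11, edgeR adjusted p = 0.158, DESeq2 adjusted p = 0.0396), followed by Cox7b2 (-1.74 ± 0.59). Over the 13 classes the fold change of Ndufv3 was negative in 11, from -0.79 to 0.08, and the KO libraries lay below the WT libraries in 6 (DCT, IC, LOH, PC, PCT and podocytes). Atp5e, the epsilon subunit of ATP synthase, was negative in 12 of 13 and below without overlap in 5. Of 79 members tested in at least 10 classes, 18 were negative and 4 (Cox5a, Atp5a1, Atp5c1 and Atp5g3) positive in at least 10. The classes come from the same mice and are not independent. Ndufv3 was singled out here for having the highest count among the members. Such counts over classes are not given for all genes, so how unusual they are for any gene cannot be judged and was not tested. In the sum of all cells 73 of 86 members were negative, with a median of -0.12, against 0.00 over all genes, and 27 had KO below WT without overlap, where 10.7% of all genes did.

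Whether the KO difference varied between distal classes was tested as an interaction over LOH, DCT, CNT, PC and IC. Of all genes, 5.95% passed, and of the members only Ndufa10 (edgeR adjusted p = 0.00257), at chr1:92439010-92473860 on the minus strand. With a limit of 30% mitochondrial UMIs no member passed. The fold change of Ndufa10 was -0.25 in LOH, 0.07 in DCT, 0.28 in CNT, 0.47 in PC and 0.24 in IC. In LOH it was at 344, 332 and 358 CPM in WT and at 275, 299 and 298 CPM in KO, all KO below WT, whereas in PC, CNT and IC all KO libraries lay above. In CNT it was at 354, 351 and 372 against 499.7, 388 and 413 CPM and in IC at 478, 382 and 476 against 482, 545 and 527 CPM. Cox7a1 came next (edgeR adjusted p = 0.0503), followed by Uqcrq (edgeR adjusted p = 0.0853), and the lower level of Ndufv3 in LOH was therefore not shown to differ from that in the other classes.

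The rest of the pathway was read from lists of mitochondrially encoded subunits (13 genes), assembly factors (41), the tricarboxylic acid cycle (13) and electron carriers with coenzyme Q synthesis (14). No gene of these lists passed edgeR's threshold between WT and KO in any class. In LOH, fold changes were negative in 11 of 13 genes of the tricarboxylic acid cycle (median -0.13), 11 of 14 of the carriers (median -0.16), 28 of 40 assembly factors (median -0.06) and 8 of 13 mitochondrially encoded subunits (median -0.02). In podocytes they were negative in 33 of 39 assembly factors (median -0.19), 11 of 13 of the tricarboxylic acid cycle (median -0.12) and 7 of 14 of the carriers, and in 0 of 13 mitochondrially encoded subunits. Stromal cells and macrophages had positive fold changes in 13 of 13 and 12 of 12 mitochondrially encoded subunits (medians 0.29 and 0.21), beside members' medians of 0.02 in both.

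After seeing the data, the members were split by the length of the longest coding transcript. In LOH, 39 of the 41 shorter and 38 of the 41 longer members had a negative fold change, with medians of -0.14 and -0.15. In podocytes it was 40 of 42 and 37 of 41, with medians of -0.21 and -0.16. With so many negative, the counts leave little room for a difference by length. Length and fold change had a Spearman correlation of -0.01 in LOH and 0.21 in podocytes. The part of length was not tested.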

How the data were processed

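For each library the authors deposited UMI counts, not normalized, from the whole-transcriptome pipeline of BD Rhapsody (mm10, GENCODE annotation), and barcodes that hold no cell were included. The submitters' processing notes name Scanpy 1.8. How reads shared between a member and its pseudogenes were counted is not given in the sources used here, so such members are uncertain to that extent.

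From these counts, barcodes with 500 to 60000 UMIs, 200 to 8000 genes and at most 50% mitochondrial UMIs were kept. The automatic Scrublet threshold marked at most 0.584% of cells and had not worked in most libraries, so the 6% with the highest scores were removed in each. Cells were clustered in scanpy 1.11.5 (Leiden, 2000 variable genes, 30 components, 15 neighbours, resolution 1.0) without the members and mitochondrially encoded genes, and clusters were named from markers. Neutrophils and 1 unnamed cluster had too few cells in some library to compare.

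UMIs were summed per library and class, since cells of 1 mouse are not replicates, and tested with edgeR 4.0.16 in R 4.3.3 (TMM, filterByExpr with a minimum count of 10, quasi-likelihood test, two-sided, Benjamini-Hochberg over all genes tested, threshold 0.05). Classes needed 20 cells in every library, PCT 10. The fits were tested on simulated data. DESeq2 1.42.0, other filters, limits and scalings, and leaving out libraries were alternatives. Levels are CPM including mitochondrial UMIs, and rare genes were limited by depth, with intervals and limits covering counting error only. Coordinates are from GENCODE vM21 on GRCm38.

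Members named in the text are those past the threshold in a class, or the 2 with the lowest p where none passed, a set of core subunits, the isoform sets, the 3 widest and 3 narrowest ranges, the 3 largest differences each way in each pair of classes and those that passed the interaction test. Other names were chosen after their values were seen. Values of 1 member that this rule names are not reported here. The members and lists were chosen with earlier results of these data known. In no class did all 3 pairs of same-numbered WT and KO libraries have correlated deviations above the limit set, so the numbers were not taken to pair mice. Every pair of libraries differed beyond sampling noise (chi-square per degree of freedom of at least 25.04), so none was counted as a duplicate.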

Additional observations from a re-analysis of the deposited data

Results flagged for a closer look

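Ndufa10 was singled out because the difference between WT and KO itself differed among the distal classes, with an edgeR adjusted p of 0.00257 for the interaction. Its fold change was -0.25 in LOH, with all KO libraries below the WT libraries, and 0.28 in CNT, 0.47 in PC and 0.24 in IC, with all KO libraries above. With a limit of 30% mitochondrial UMIs no member passed this test. In PC the mitochondrial share was 27.3% to 30.01% in the WT and 30.4% to 32.5% in the KO libraries. The median UMIs per cell there were 5026 to 6052 in WT and 6888 to 7257 in KO. The groups did not overlap in either measure, and the part of these was not tested.

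Barcodes with 10 to 100 UMIs, which lie outside every comparison, carried transcripts of the members. Of their UMIs, 1.65% in the lowest library and 2.29% in the highest came from the members, and 50.9% to 62.3% were mitochondrial. The mean share in macrophages, T and NK cells, endothelial cells and podocytes (0.726% to 1.42%) lay below the lowest of these libraries, that of stromal cells (1.69%) lay within their range, and those of the tubule classes (2.46% to 5.37%) lay above it. With mitochondrial transcripts left out, the share was 4.09% to 4.91% in these barcodes. Below that range lay DLH (3.05%), stromal cells (2.13%), endothelial cells (1.66%), podocytes (1.63%), T and NK cells (1.27%) and macrophages (0.802%). Macula densa (4.30%) and PCT (4.80%) lay within it and PC (4.912%) at its upper end. LOH (6.58%), CNT (6.86%), IC (7.30%) and DCT (9.05%) lay above it.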

How the results depend on the processing

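Of the summary values, 412 kept within the spread or within 1.5 times the main count under an alternative and 56 moved, and of the single-member values 397 kept their direction and side of the threshold, 31 fell short, 7 gained it and 4, none of them past the threshold in any of these fits, turned direction. With the limit of 30% mitochondrial UMIs Ndufv3 turned to 0.12 in DCT and Atp5k to 0.12 in macula densa, and stromal Cox4i2 turned to -0.0795 without the libraries with Xist and ran from -0.0071 to 0.82 when 1 library was left out. Leaving mitochondrial transcripts out of the scaling gave shares of 6.86% in CNT, 9.05% in DCT, 1.66% in endothelial cells, 7.30% in IC, 6.58% in LOH, 4.30% in macula densa, 4.91% in PC, 4.80% in PCT, 1.63% in podocytes, 2.13% in stromal cells and 1.27% in T and NK cells, by construction. A limit of 30% mitochondrial UMIs gave 5.74% in DCT, 5.13% in LOH and 2.43% in macula densa, and no limit gave 2.60% in CNT, 2.82% in DCT, 1.33% in endothelial cells, 3.44% in IC, 2.57% in LOH, 2.88% in PC and 1.31% in PCT. Between WT and KO, the 30% limit left 0 members called in CNT and 0 in LOH, and gave 4 in the sum of all cells (Ndufv3, Atp5e, Ndufa13 and Ndufa3) and 0 in the interaction test. It left 0 lower in LOH against PC, and was not run in PCT, where a library then had fewer than 10 cells. No mitochondrial limit left 1 in LOH, and without the libraries with Xist LOH had 0 and DLH 1 (Cox7a1). DESeq2 gave 1 in PC (Ndufa10), 1 in podocytes (Cox6b1) and 1 in the sum of all cells (Ndufv3). Without a filter on low counts PC had 1 (Ndufa10) and podocytes 7, and with a term for the libraries with Xist PC had 1 (Ndufa10). Within clusters, chosen after seeing the data, LOH had 1 and 11, and podocytes 1 (Ndufv3), without a share of all genes to set beside these counts. In PCT against PC, members called higher were 15 by the scaling without mitochondrial transcripts, 15 by DESeq2 and 9 without a filter, and the lower count was 1 by that scaling. Stromal against endothelial cells had 20 higher by DESeq2 and 26 without a filter. Leaving out 1 library gave 1 to 3 called in LOH, 3 to 19 higher and 1 to 5 lower in PCT against PC, and 1 to 2 in the interaction test. The replicate block, although the numbers were not taken to pair the mice, gave 3 members in LOH, 1 in CNT and 0 in the other classes. Apart from the scaling, the cause was not tested. Shares of all genes called under these alternatives are not given, so the counts called cannot be read as a trait of the members. PCT, DLH and the rare isoforms were limited by depth.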
